A study of Homo sapiens with 8 samples.

Results

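The genes described here encode the proteasome. They were taken as the protein-coding genes of the GENCODE annotation of GRCh37 whose symbol is PSMA, PSMB, PSMC, PSMD, PSME, PSMF or PSMG followed by a number, which gave 48 of 19821 coding genes. Peaks of all 6 libraries were merged where they shared at least 1 bp, and 83 of the 49186 merged regions lay in one of these genes or within 5 kb of it. Those 83 regions belonged to 46 genes, with 50 regions holding a protein-coding transcript start and 33 lying elsewhere. PSMA8, a testis-type alpha subunit, and PSMB11, the beta subunit of the thymic proteasome, had no region within 5 kb in any library.

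Acetylation of histone H3 at lysine K27 (H3K27ac), a mark of active promoters and enhancers, was measured by ChIP-seq in A549, a lung adenocarcinoma cell line whose KEAP1 gene is mutated. KEAP1 normally targets NRF2 for degradation, so NRF2 is constitutively active in these cells, the controls included. Of the libraries, 3 came from cells given control siRNA and 3 from cells given siRNA against NRF2 (gene NFE2L2), all harvested after 48 hours. NRF2 siRNA 28 was used in replicate 1 and NRF2 siRNA 30 in replicates 2 and 3. Peaks are named with a flow cell in replicates 2 and 3 but not in replicate 1, so siRNA sequence and sequencing run cannot be told apart. All the cells are 1 cell line, and the study describes the replicates as independent experiments. The lists held 27941, 34747 and 41571 peaks with control siRNA and 23885, 34986 and 39108 with NRF2 siRNA, in replicate order. The epithelial genes KRT8, KRT18, EPCAM and CDH1 had a peak at their start in all 6 libraries. KRT19 and the alveolar genes NKX2-1, SFTPC and NAPSA had none. PTPRC, CD3E, CDH5 and COL3A1, markers of blood, endothelial and connective tissue cells, had none either, and COL1A1 had one in control siRNA replicate 3 and in NRF2 siRNA replicate 3.

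The proteasome degrades proteins tagged with ubiquitin. Its barrel-shaped core particle is built from rings of alpha subunits (PSMA), which gate entry, and rings of beta subunits (PSMB), some of which cut peptide bonds. A regulatory particle caps the barrel: its base holds ATPases (PSMC) that unfold substrates, and its base and lid (PSMD) bind and remove ubiquitin. Other caps (PSME), an inhibitor (PSMF1) and assembly chaperones (PSMG and some PSMD) complete the family. NRF2 binds antioxidant response elements next to many genes of oxidative defence, and its relative NFE2L1 (NRF1) raises proteasome gene expression when proteasome activity is short.

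The core of the antioxidant response element was searched as TGACNNNGC or TGAGNNNGC, on both strands, in the RefSeq windows of 250 bases before to 50 bases after each annotated start (GRCh38.p14 table). Windows were held for 42 of the 48 genes (51 windows), and 50 of the windows were placed in GRCh37 by an exact match. A core was present in 22 of the 42 genes (52.4%), against 5734 of 15281 coding genes with a window (37.5%). With TGAC alone the shares were 15 of 42 (35.7%) and 18% of coding genes. Counted per window, 23 of 51 windows (45.1%) held a core, against 30.3% of 21541. GC content was alike, with a median of 62% in these windows and 62.3% in all. A match of this kind is a description of letters and not a binding site.

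The matches with TGAC that lie before a RefSeq start of the gene and under an H3K27ac peak in all 6 libraries are shown. Matches with TGAG, and some that lie after a start, were also under a peak in all 6 libraries and are not shown. Each sequence shown is read 5′ to 3′ on the strand of the gene, with the core in capitals. In PSMB9, PSMC5 and PSME4 the core runs in the reverse complement.
PSMA4, chr15:78832992-78833021, plus strand: gtgggcacgaTGACTCTGCaccgcctcctc
PSMB3, chr17:36908880-36908909, plus strand: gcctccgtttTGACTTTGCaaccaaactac
PSMB9, chr6:32821811-32821840, plus strand: gggcggggctGCCTCGTCActtgtctcggg
PSMC5, chr17:61905014-61905043, plus strand: gaccggatctGCTGTGTCAgcgccgccctc
PSMD5, chr9:123605315-123605344, minus strand: tggctacagtTGACACGGCcctaacggagg
PSME2, chr14:24615975-24616004, minus strand: ccctggactgTGACCCAGCcagcaccgcct
PSME4, chr2:54198145-54198174, minus strand: cccggcggctGCAGCGTCAccagcagagcc
PSMG1, chr21:40555541-40555570, minus strand: gcccagggcaTGACAGCGCgggcgggcggt
These coordinates are of GRCh37. The core lies 126 bases before the RefSeq start in PSMA4 (offset -126), and at offsets -104 in PSMB3, -148 in PSMB9, -57 in PSMC5, -134 in PSMD5, -175 in PSME2, -34 in PSME4 and -183 in PSMG1. In PSMA4 and PSMC5 the offset is from the most downstream RefSeq start, and the core lies inside the gene when read from an earlier one. In PSMB9 and PSME2 the core also lies inside the annotated span of the gene, which extends further upstream.

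The promoters of PSMA1 and PSMF1 are shown because their start regions had the most negative and the most positive change in rank given below. Their windows hold no core, so the stretch from 250 to 61 bases before the RefSeq start carries no capitals.
PSMA1, chr11:14541993-14542182, minus strand: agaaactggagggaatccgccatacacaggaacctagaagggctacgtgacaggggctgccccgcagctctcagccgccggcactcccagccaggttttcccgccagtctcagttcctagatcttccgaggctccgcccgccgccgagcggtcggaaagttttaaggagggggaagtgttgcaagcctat
PSMF1, chr20:1098995-1099184, plus strand: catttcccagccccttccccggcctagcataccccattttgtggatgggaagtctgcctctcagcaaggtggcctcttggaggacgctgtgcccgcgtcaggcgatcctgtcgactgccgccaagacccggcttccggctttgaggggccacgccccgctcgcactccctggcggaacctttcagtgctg
The PSMA1 stretch lies inside an intron of the longer PSMA1 transcripts and holds no annotated exon. Part of the PSMF1 stretch is exon of a noncoding transcript on the opposite strand.

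H3K27ac marked nearly every proteasome gene in every library. The start region is the merged region that holds a transcript start of the gene. Where a gene had several, the one of highest mean percentile (defined below) was taken. It was called in all 6 libraries for 43 of 48 genes (89.6%), against 39.1% of all coding genes. PSMA7 and PSME1 were called in 4 libraries, being absent from replicate 1 of both groups, and PSMB8 in 2. In 11 genes the start region also held the start of a coding gene outside the family (TBP beside PSMB1, PCGF2 beside PSMB3, TAP1 beside PSMB9, FTSJ3 beside PSMC5, MRPL32 beside PSMA2, ATG4A beside PSMD10, SIRT3 beside PSMD13, RNF31 beside PSME2, BECN1 beside PSME3, ACYP2 beside PSME4 and CEP76 beside PSMG2), and its acetylation cannot be divided between them. The PSMB8 start region likewise holds a start of PSMB9.

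The peaks were narrow and in most genes lay over the start. That of PSMG4 lay over another start, from -27639 to -26999 bp of the canonical one in control siRNA replicate 1. A second PSMG4 region with a start, at chr6:3259165-3260370, was called in every library. It was not the start region taken, and the counts here leave such second regions out. At the 43 genes called throughout, the canonical start lay under a peak of the start region taken in 38, 41 and 42 genes with control siRNA. With NRF2 siRNA it did so in 34, 40 and 41. At 1000 bp into the gene, 9, 11 and 12 genes were covered with control siRNA and 2, 5 and 7 with NRF2 siRNA. At 1000 bp before the start the counts were 10, 10 and 14 with control siRNA and 7, 11 and 13 with NRF2 siRNA. The same counts over all coding starts were not made. The median covered width was 1257, 1483 and 1674 bp with control siRNA and 1094, 1294 and 1546 bp with NRF2 siRNA, below the median over all coding start regions in each library (1659, 1935 and 2277 bp, and 1303, 1892 and 2100 bp). Width followed the length of the list in each group, since the library with the fewest peaks also had the narrowest ones.

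**Figure D1:**
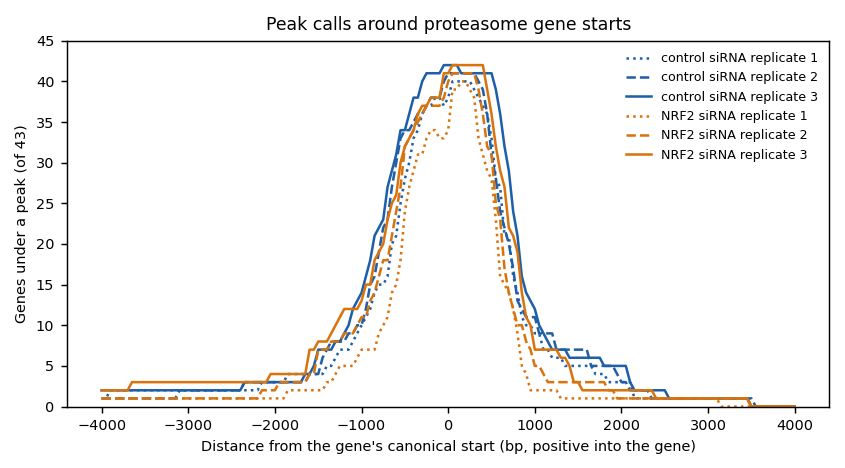
Number of proteasome genes (of the 43 called in all 6 libraries) under a peak of the start region taken, at each distance from the canonical start, in bp. Each library has one line. At the start itself the lines lie between 34 and 42 genes, and by 2000 bp on either side they are at 5 genes or fewer.

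The strength of each call was read as a percentile: the share of a library's own peaks whose fold enrichment over background was no higher than that of the region. A percentile of 100 is the strongest peak of that list, and a longer list gives a higher percentile to the same peak. Over the start regions called in all 6 libraries the mean percentile had a median of 68.6 (quartiles 59.9 and 78.2), against 71.2 (57.8 and 83.7) over 6570 such regions of coding genes. Proteasome promoters were thus of middling and rather even strength. The strongest by mean percentile were PSMD7, PSMC5 and PSMB5, and the weakest of those tested were PSMF1, PSMD2 and PSMA7, counting a library without a call as 0.

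For the comparison of groups, the 32673 regions with a call in 3 or more libraries were ranked by fold enrichment within each library. The ranks were turned into normal scores, with regions not called tied at the lowest rank. limma was fitted to these regions, among them 71 of the 83 proteasome regions. A change is the mean score with NRF2 siRNA minus that with control siRNA, in units of the normal score. A pair in which neither library has a call still differs in score, by 0.251, 0.075 and 0.144 in replicates 1, 2 and 3, because the lists differ in length.

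No proteasome region passed the threshold of an adjusted p of 0.05 in limma. That is 0 of 71 in either direction, where 3.39% of all regions were lower and 2.01% higher with NRF2 siRNA. At an unadjusted p under 0.05, limma gave 9 of the 71 (12.7%, 4 lower and 5 higher), against 22.5% of all regions. The 9 include an intron of PSMA1 and an exon of PSMB7, which had calls in 1 group alone and so had to differ. The median change was -0.03 over the 71 regions and 0.02 over all regions, and without control siRNA replicate 3 or NRF2 siRNA replicate 2 the former turned to 0.0054 and 0.024. Over the 45 start regions tested it was -0.05, against -0.06 over the start regions of all coding genes. Of these 45, 30 had a lower mean rank and 15 a higher one, from -0.74 to 0.81. The 95% intervals had a median half-width of 0.505 before any adjustment over regions, and the absence of calls does not show that the groups were alike. The 3 pairs did not lie together: the median start region moved by 0.089 in pair 1, by -0.17 in pair 2 and by -0.17 in pair 3. The same medians over all coding start regions are not given here, so this pattern cannot be read as particular to proteasome genes.

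**Figure D2:**
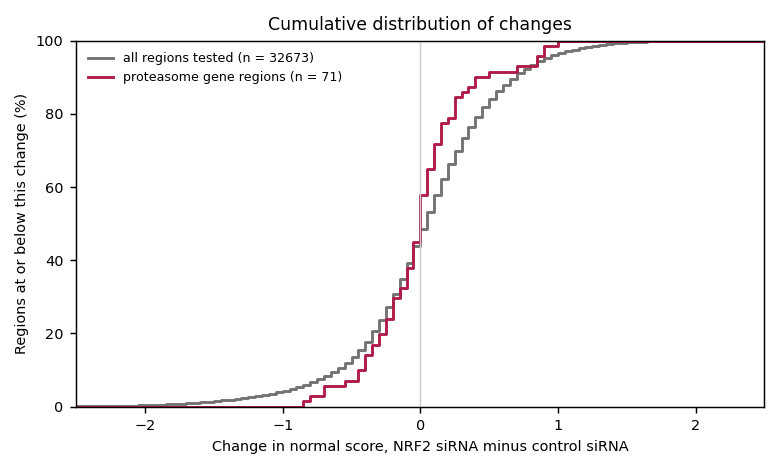
Cumulative share of regions (in %) at or below each change in normal score, for the 71 proteasome gene regions tested and for all 32673 regions tested. The 5th and 95th percentiles are -0.64 and 0.81 for the proteasome regions and -0.93 and 0.88 for all regions.

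Deviations of same-numbered libraries from their group means were positively correlated (0.398, 0.199 and 0.363), against -0.383 to 0.107 for different numbers. The number of peaks also rose with the replicate number in both groups, and what the correlation reflects was not tested. With the replicate number as a block in limma, 2 proteasome regions were lower and 4 higher, against 6.62% lower and 5.72% higher of all regions. These were the start and an intron of PSMA1, an intron and an exon of PSMB7, a region downstream of PSMB8, and the start of PSMF1. The PSMA1 intron and the PSMB7 exon had calls in 1 group alone and entered the 71 only through it, so they had to differ. Counted after the values were seen and without such regions, 1 of 69 was lower (1.45%, against 4.1% of all) and 3 higher (4.35%, against 4.72%) with the block.

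**Figure D3:**
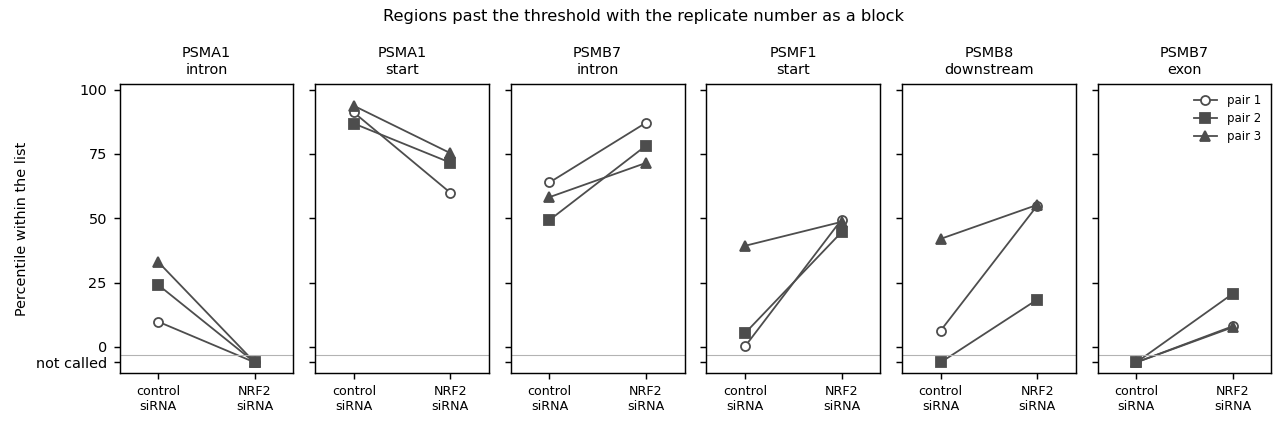
Percentile of fold enrichment within each library's list for the 6 proteasome regions past the threshold with the replicate number as a block, with one line per same-numbered pair and libraries without a call drawn below 0. Both PSMA1 regions are lower in all 3 pairs, and the PSMB7, PSMF1 and PSMB8 regions are higher in all 3 pairs.

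Presence and overlap were also counted. A single region was called in all 3 control siRNA libraries and in no NRF2 siRNA library (1.2% of 83, against 2.27% of all merged regions), and a single one the other way round (1.2%, against 0.83%). Percentiles did not overlap between groups, with NRF2 siRNA lower, at 9 of the 71 regions (12.7%, against 12.8% of all regions). They did not overlap, with NRF2 siRNA higher, at 5 regions (7.04%, against 7.39%). The 9 include the PSMA1 intron and the 5 the PSMB7 exon, which had calls in 1 group alone and so had to differ. Among start regions, those without overlap were PSMA1, PSMB3, PSMC1, PSMC5 and PSMD3 on the lower side. On the higher side they were PSMC3 and PSMF1. These genes are named here after their values were seen.

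For width, ranked in the same way, limma called no proteasome region and 0% of all regions, with a smallest adjusted p of 0.0986 among the proteasome regions. At an unadjusted p under 0.05 it gave 7 proteasome regions (9.86%) and 15.4% of all regions, and with the replicate block it again called none. The covered widths were narrower without overlap at 11 regions (15.5%, against 10% of all regions) and wider at 1 (1.41%, against 3.98%). The 1 wider region was the PSMB7 exon, and the 11 narrower ones include the PSMA1 intron. Both had calls in 1 group alone and so had to differ. The shares over all regions include such regions too.

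In the alpha ring, 6 of 7 start regions had a lower mean rank with NRF2 siRNA. The median change was -0.19, and none of the 7 passed the threshold. PSMA1, an alpha subunit of the outer ring, had the most negative change of any proteasome start region. It stood at the percentiles 91.1, 86.8 and 93.7 with control siRNA and at 59.9, 71.6 and 75.3 with NRF2 siRNA. The groups did not overlap, and all 3 pairs were lower, by -0.82, -0.55 and -0.86 in score. The mean change was -0.74 (SE 0.20, n = 3 against 3, adjusted p = 0.0652, limma), and the adjusted p was 0.0393 with the replicate block and 0.0148 to 0.211 over its 14 alternatives. Its width was 1757, 1893 and 1941 bp with control siRNA and 1409, 1616 and 1715 bp with NRF2 siRNA, narrower in every library, yet its width rank changed by only -0.09 (adjusted p = 0.937, limma). A second region with a PSMA1 start, at chr11:14664705-14666372 and shared with PDE3B, changed by 0.36 (SE 0.30, adjusted p = 0.533, limma). Its pairs were 1.22, 0.28 and -0.43, and it was not the start region taken for the gene.

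PSMA1 also held the region called in the control siRNA libraries alone, in an intron at chr11:14565541-14566677. It was a weak peak, at the percentiles 9.81, 24.1 and 33 with control siRNA, and was not called with NRF2 siRNA. It passed the filter through the control group alone, so its values are a description with no test. At the other start regions of the ring the groups overlapped, PSMA3 for example standing at 83.5, 74 and 81.7 against 85.8, 65.5 and 80.9. PSMA7 was the weakest, at 8.37 and 57.4 in control siRNA replicates 2 and 3 and 34.6 and 42.2 in the same NRF2 siRNA replicates, with overlapping groups and a change of 0.20 (SE 0.31, adjusted p = 0.754, limma) that includes the shift of the pair without calls. That change was 0.033 without control siRNA replicate 1, 0.036 without replicate 2 and 0.54 without replicate 3, and without NRF2 siRNA replicates 1 and 2 in turn it was 0.35 and 0.12.

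The beta ring includes the catalytic subunits PSMB5 (chymotrypsin-like), PSMB6 (caspase-like) and PSMB7 (trypsin-like). PSMB5 was among the strongest promoters of the family, at 88.6, 89.2 and 93.8 with control siRNA and 87, 89.3 and 91.3 with NRF2 siRNA. These ranges overlapped, and the change was -0.04 (SE 0.19, adjusted p = 0.932, limma). PSMB6 was at 68.2, 60.5 and 75.8 against 75.9, 64 and 80.1, higher in all 3 pairs with overlapping groups (change 0.21, SE 0.24, adjusted p = 0.653, limma). Leaving out NRF2 siRNA replicate 1 gave a change of 0.060, NRF2 siRNA replicate 2 gave 0.39, and control siRNA replicate 2 gave 0.10. PSMB7 was at 55.1, 71.3 and 74.9 against 59.1, 49.8 and 79, and its pairs disagreed in sign (change -0.04, SE 0.24, adjusted p = 0.95, limma).

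Away from its start, PSMB7 carried 2 regions that were higher with NRF2 siRNA. The region at chr9:127148133-127156903, in an intron, stood at 63.9, 49.3 and 58.2 with control siRNA and at 87.1, 78.2 and 71.5 with NRF2 siRNA. It did not overlap between groups, and its change was 0.69 (SE 0.29, adjusted p = 0.199, limma, and 0.0498 with the replicate block, the lowest of its alternatives, which reached 0.419). Without NRF2 siRNA replicate 1 the change was 0.44. The region at chr9:127173830-127174853, over an exon, was called in no control library and at the low percentiles 8.06, 20.7 and 7.66 with NRF2 siRNA. It passed the filter through the NRF2 siRNA group alone, so its values are a description with no test.

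PSMB1, a structural beta subunit, had 1 of the 3 most positive changes among the start regions taken, 1 per gene. It was at 45.6, 60.4 and 69.3 with control siRNA and at 65.4, 54.9 and 80.7 with NRF2 siRNA, which overlap (change 0.29, SE 0.23, adjusted p = 0.513, limma). In replicate 1 the PSMB1 peak covered 1916 bp with control siRNA and 497 bp with NRF2 siRNA. PSMB3 was at 89.2, 91.7 and 96.7 against 80.9, 84.9 and 88, without overlap (change -0.41, SE 0.20, adjusted p = 0.274, limma). Its peaks were among the widest, from 5396 to 6635 bp, and include the start of PCGF2.

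The subunits that replace the catalytic ones in the immunoproteasome, induced by interferon in most cells, were PSMB8, PSMB9 and PSMB10. PSMB8 had a start peak only in replicate 3 of each group, at 21.6 with control siRNA and 15.5 with NRF2 siRNA, and was not tested. PSMB9 was at 39.5, 69 and 85.2 against 38.8, 73.2 and 68.4, in a region shared with TAP1 (change -0.08, SE 0.25, adjusted p = 0.896, limma). PSMB10 was at 75.6, 84.7 and 92.3 against 45.3, 82.9 and 86.1, lower in all 3 pairs with overlapping groups (change -0.29, SE 0.24, adjusted p = 0.526, limma), and leaving out NRF2 siRNA replicate 1 gave -0.098, leaving out control siRNA replicate 3 -0.175. Downstream of PSMB8, the region at chr6:32805695-32806676 holds the start of TAP2, a subunit of the antigen peptide transporter. It stood at 6.37 and 42 in control siRNA replicates 1 and 3, was not called in replicate 2, and stood at 54.9, 18.4 and 55.2 with NRF2 siRNA. The groups overlapped, and the change was 0.82 (SE 0.41, adjusted p = 0.277, limma, and 0.0368 with the replicate block, the lowest of its alternatives, which reached 0.614). The change was 0.42 without control siRNA replicate 2 and 0.50 without NRF2 siRNA replicate 1.

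**Figure D4:**
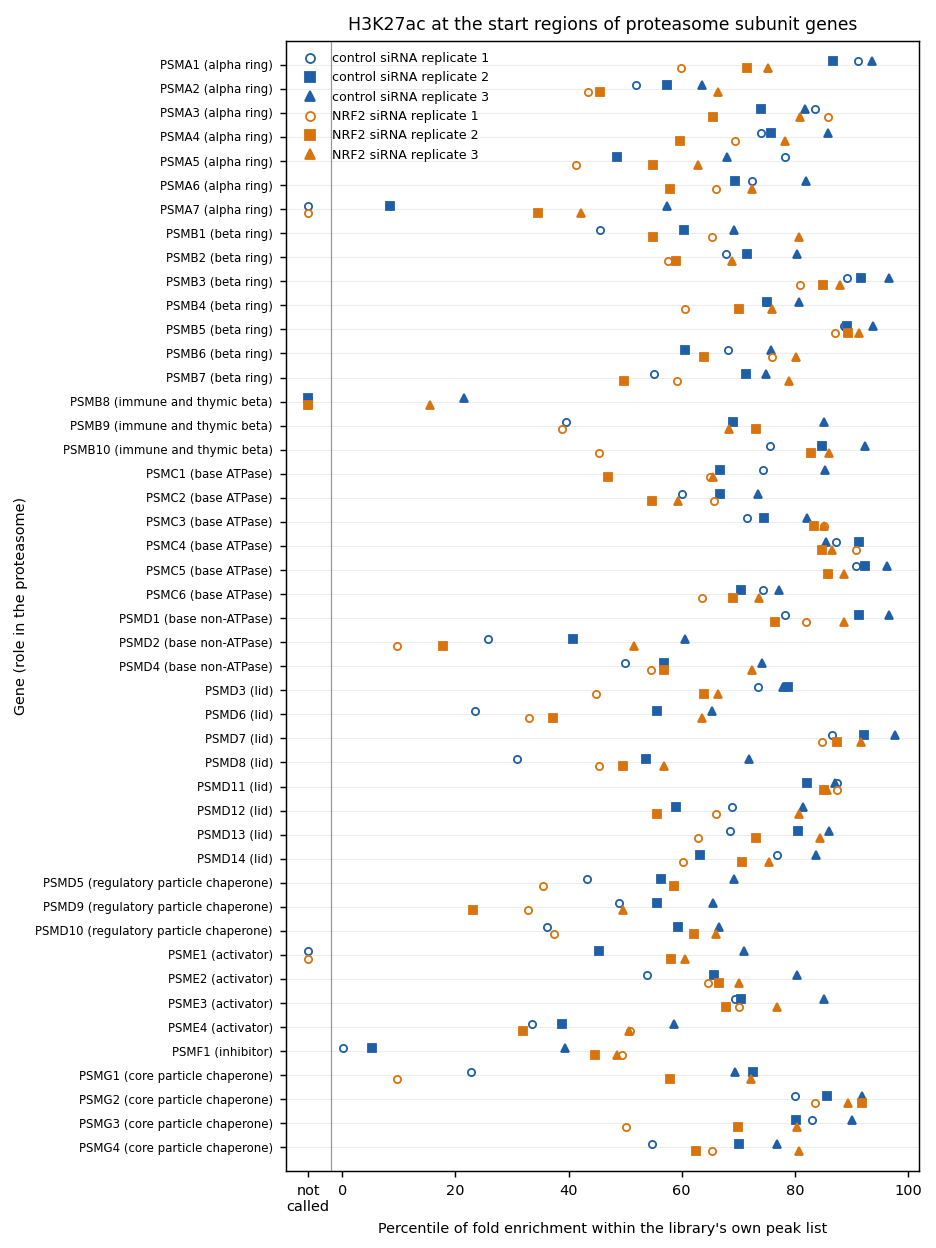
Percentile of fold enrichment within the library's own peak list at the start region of each of the 46 proteasome genes with one, grouped by role. Blue symbols are control siRNA and orange symbols NRF2 siRNA, 1 symbol shape per replicate, and libraries without a call are drawn at the left. In every library at least 30 of the 46 regions lie at or above 50, PSMA1 is lower in every NRF2 siRNA library, and PSMF1 is higher.

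Among the base ATPases, 4 of 6 start regions were lower and 2 higher, with a median change of -0.10. PSMC1 was at 74.4, 66.8 and 85.3 with control siRNA and 65, 46.9 and 65.6 with NRF2 siRNA, all below the lowest control library. Its change was -0.42 (SE 0.26, adjusted p = 0.394, limma), and its peaks were narrower, from 954 to 1008 bp against 289 to 716 bp. PSMC3 went the other way, at 71.5, 74.6 and 82.1 against 85.2, 83.3 and 85.2, again without overlap (change 0.34, SE 0.20, adjusted p = 0.36, limma). PSMC5, in a region shared with FTSJ3, was at 90.7, 92.3 and 96.2 against 85.8, 85.8 and 88.6 (change -0.35, SE 0.20, adjusted p = 0.348, limma), and here too the groups did not overlap.

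Of the other base subunits, PSMD2, a scaffold that binds ubiquitin-like domains, was among the weakest. It stood at 25.8, 40.8 and 60.5 with control siRNA and at 9.7, 17.8 and 51.6 with NRF2 siRNA, with overlap (change -0.23, SE 0.24, adjusted p = 0.625, limma). PSMD4, a ubiquitin receptor, was at 50, 56.8 and 74.1 against 54.5, 56.9 and 72.4 and was level between groups in these values (change 0.09, SE 0.21, adjusted p = 0.843, limma).

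In the lid, 6 of 8 start regions had a lower mean rank, with a median change of -0.05. PSMD14, the metalloprotease that removes ubiquitin from substrates, was at 76.9, 63.2 and 83.8 against 60.3, 70.7 and 75.5 (change -0.10, SE 0.22, adjusted p = 0.832, limma), with overlapping groups. PSMD7, its partner subunit, had the highest mean percentile of the family, at 86.6, 92.2 and 97.7 against 84.8, 87.4 and 91.7 (change -0.28, SE 0.23, adjusted p = 0.521, limma). PSMD3 was at 73.4, 78.7 and 77.9 against 44.9, 63.9 and 66.4, without overlap (change -0.40, SE 0.19, adjusted p = 0.262, limma).

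Width separated the groups more than rank at a few members, named here after their values were seen. PSMD11, a lid subunit, was covered over 2184, 1964 and 2135 bp with control siRNA and over 762, 819 and 1498 bp with NRF2 siRNA (adjusted p = 0.28, limma on width ranks). PSMA5 was covered over 2716, 2878 and 3457 bp against 1377, 1786 and 1868 bp (adjusted p = 0.274). The lowest adjusted p for width, 0.0986, belonged to an intronic region of PSMD1 at chr2:231982066-231999110, which holds the start of HTR2B, a serotonin receptor gene. It was covered over 14989, 11708 and 9795 bp with control siRNA and over 1734, 3352 and 5535 bp with NRF2 siRNA, and its percentiles were 70.8, 60.1 and 53 against 39.6, 40.2 and 24.1.

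The activators bind the core particle in place of the regulatory particle. PSME1 was at 45.3 and 71 in control siRNA replicates 2 and 3 and at 58.1 and 60.5 in the same NRF2 siRNA replicates, with no call in replicate 1 of either group (change 0.10, SE 0.40, adjusted p = 0.913, limma). PSME2, in a region shared with RNF31, was at 53.9, 65.7 and 80.4 against 64.6, 66.6 and 70.1 (change 0.04, SE 0.21, adjusted p = 0.941, limma). In both genes the NRF2 siRNA values lay within the range of the control values.

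PSMF1, an inhibitor of the core particle, had the most positive change of any proteasome start region. Its peak stood at 0.233, 5.36 and 39.3 with control siRNA and at 49.5, 44.6 and 48.6 with NRF2 siRNA. In the first of these libraries it was thus at the foot of the list, and every NRF2 siRNA library lay above every control. The change was 0.81 (SE 0.27, adjusted p = 0.108, limma, and 0.0457 with the replicate block), with pairs at 1.03, 1.03 and 0.38. Over its 14 alternatives the adjusted p ran from 0.0406, with equal list lengths, to 0.595. Its width did not follow, at 430, 898 and 1309 bp against 349, 869 and 902 bp. In replicate 1 the peaks covered largely different stretches. They ran from -266 to 163 bp of the canonical start with control siRNA and from -545 to -197 bp with NRF2 siRNA.

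Of the chaperones that assemble the core particle, PSMG3 had 1 of the 3 most negative changes, at 83.1, 80.1 and 90.1 with control siRNA and 50.2, 70 and 80.4 with NRF2 siRNA. All 3 pairs were lower, though the highest NRF2 siRNA value lay just above the lowest control (change -0.46, SE 0.21, adjusted p = 0.225, limma). The other 3 members of that group changed by -0.05 to 0.15. The chaperones of the regulatory particle (PSMD5, PSMD9 and PSMD10) had mean percentiles of 46 to 54.6 at their starts. Of these start regions 2 were lower and 1 higher. PSMD9 stood at 49, 55.6 and 65.6 with control siRNA and at 32.8, 23.1 and 49.7 with NRF2 siRNA. All 3 pairs were lower, with overlapping groups (change -0.41, SE 0.25, adjusted p = 0.365, limma). Its start is also named after its values were seen. Away from the start, a region over an exon of PSMD9 at chr12:122330875-122332676 had the most positive change of all 71 regions and is named here after its values were seen. It was not called in control siRNA replicate 1, stood at 16.4 and 29 in the other controls, and stood at 61.4, 43.7 and 40.9 with NRF2 siRNA. The groups did not overlap (change 0.97, SE 0.29, adjusted p = 0.0911, limma, and 0.0603 with the replicate block).

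**Figure D5:**
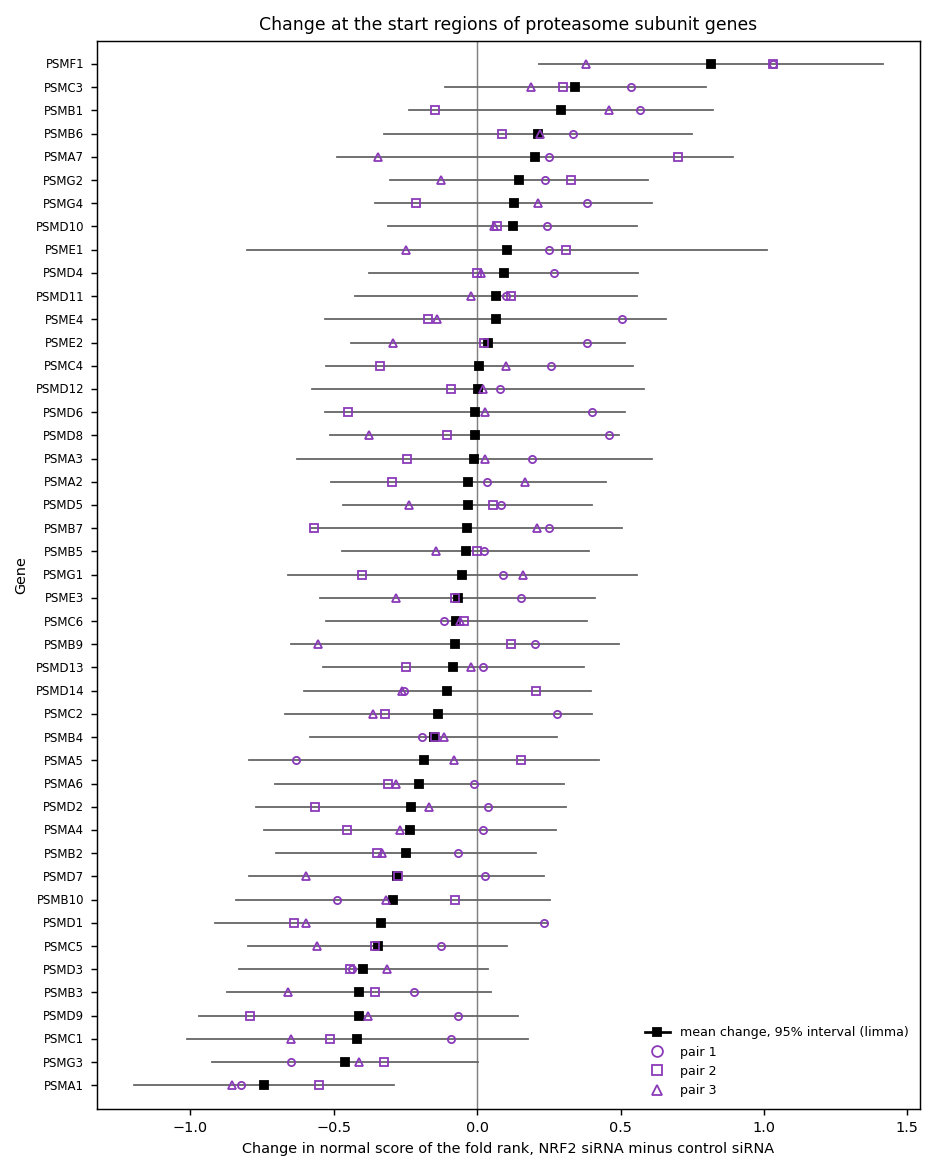
Change in the normal score of the fold rank (NRF2 siRNA minus control siRNA) at each of the 45 proteasome start regions tested, with the limma mean (black square), its 95% interval (line) and the 3 same-numbered pairs (open symbols). Intervals of PSMA1 and PSMF1 lie wholly on one side of 0, and the others include it.

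Genes with and without a core in any of their RefSeq windows did not stand apart in these values. PSMG2 is counted as having one, though its core lies at chr18:12658698-12658706, outside its start region and under no peak. Of the 22 genes with a core, 16 start regions were lower and 6 higher (median change -0.06), and of the 17 tested without one, 12 were lower and 5 higher (median -0.07). Their median mean percentiles were 68.1 and 70. Neither PSMA1 nor PSMF1, whose start regions had the most negative and the most positive change, had a core in the letters searched. This comparison is a description and was not tested.

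Other genes of proteasome assembly, regulation and ubiquitin supply were read from a list of 22, of which 19 had a start region in all 6 libraries. The median change over their 35 tested regions, at starts and elsewhere, was -0.19. It was 0.02 over all regions and -0.06 over the start regions of all coding genes. limma called 1 of them lower and none higher, where 3.39% and 2.01% of all regions were called, and with the replicate block 3 lower and 1 higher, where 6.62% and 5.72% were. Of these 4 regions, 3 passed the filter through 1 group alone, and without such regions the list had no call, and 1 lower with the block. The 3 are therefore given by their percentiles only, with no test. A region over an exon of AKIRIN2, which imports proteasomes into the nucleus, lies at chr6:88380684-88385613 and 26338 bp from the gene's nearest start. It stood at 41.4, 49.4 and 62 with control siRNA and was not called with NRF2 siRNA. A region in an intron of ECPAS, a proteasome-binding scaffold, stood at 35.5, 5.12 and 29.4 with control siRNA and was not called with NRF2 siRNA. A region over an exon of UCHL5, a proteasome-bound deubiquitinase, stood at 51.7, 40.2 and 26.1 with NRF2 siRNA and was not called with control siRNA.

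The remaining call with the block was the start of SEM1, a small lid subunit whose symbol lies outside the rule. It stood at 76.6, 78.5 and 84.6 with control siRNA, was not called in NRF2 siRNA replicate 1, and stood at 50.4 and 62.3 in the others (change -1.07, SE 0.28, adjusted p = 0.0574, limma, and 0.0316 with the block). NFE2L1 was at 78.3, 84.8 and 92.9 against 69.5, 83.1 and 85.2 (change -0.19, SE 0.20, adjusted p = 0.634, limma). POMP, the maturation factor of the core particle, changed by -0.21 (SE 0.22, adjusted p = 0.631, limma).

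NQO1, a classical NRF2 target, serves as a reference for size. Its start region stood at 99.3, 99.1 and 99.4 with control siRNA and at 95.1, 87.2 and 94.5 with NRF2 siRNA (change -0.94, SE 0.23, adjusted p = 0.0508, limma, and 0.0223 with the replicate block). No start region of the 48 genes had as negative a change as NQO1, while that of SEM1, outside the rule, was more negative. The SEM1 pairs were -1.73, -0.78 and -0.71, the first with a library without a call at the tied lowest rank. Those of NQO1 were -0.67, -1.2 and -0.94. These differences between regions were not tested.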

How the data were processed

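Broad H3K27ac peaks, 1 list per library, were used for 3 control siRNA and 3 NRF2 siRNA libraries of A549 cells; the 2 input libraries were not analysed here. Per the submitters' processing notes, reads were demultiplexed with bcl2fastq 2.15.0, trimmed with cutadapt 1.15, aligned with Bowtie2 2.2.6 and handled with SAMtools and bedtools, and peaks were called with MACS2 2.1.0.20151222. The deposited files give for each peak a fold ratio (fold enrichment over background, which broad calling averages over the peak) and a −log10 q-value. They hold no read counts, so the depth behind a fold is unknown, and fold was compared only as a rank within each library. Which input served as background is not given in the sources used here. Coordinates are of GRCh37, and no peak ran past a chromosome's end.

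Normal scores of the ranks of fold, and of covered width, were fitted with limma 3.58.1 in R 4.3.3 over regions called in at least 3 libraries, with Benjamini-Hochberg adjustment. An exact permutation test of 3 against 3 cannot go below p = 0.1 and was not used. The fitting code was tested on simulated data. Same-numbered libraries varied together: deviations from the mean of each group correlated at 0.398, 0.199 and 0.363 over 32673 regions. For different numbers the correlations were -0.383 to 0.107. The fit with the replicate number as a block is therefore given beside each result it changes. Named start regions were the 3 most negative and most positive changes, the 3 lowest and highest mean percentiles, and a fixed list (the catalytic and immune beta subunits, PSMD14, PSMD4, PSME1, PSME2 and PSMF1); exceptions are marked. Genes and lists were chosen with earlier results of these data known. PECAM1, 1 of the marker genes, was not analysed here, and 1 other is not reported here. Alternatives were another merging gap and flank, equal list lengths, stricter q-values, other filters, another variance model and leaving out each library. Computations used Python 3.11.15, numpy 2.4.6 and pandas 2.3.3.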

Additional observations from a re-analysis of the deposited data

Results flagged for a closer look

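At 2 of the 23 named regions (8.7%) the siRNA 28 pair moved one way and both siRNA 30 pairs the other. PSMD2 moved by 0.039 in pair 1 and by -0.56 and -0.17 in pairs 2 and 3, a gap of 0.405 between pair 1 and the mean of the others. PSMD7 moved by 0.029 in pair 1 and by -0.28 and -0.60 in pairs 2 and 3, a gap of 0.465. The difference was not tested, and with 1 pair of siRNA 28 the siRNA sequence and the run cannot be told apart. Over all 71 proteasome regions tested, 12 (16.9%) had this pattern, against 21.9% of all regions.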

How the results depend on the processing

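No proteasome region passed the threshold, and this count depended on the setting. The number lower was 2 with the replicate block, 2 with equal list lengths, and 1 each with q-values of at most 1e-05, with regions called in all 6 libraries, with a trended and robust variance and with genes plus 20 kb. It was 0 to 1 when single libraries were left out, the 1 arising without NRF2 siRNA replicate 1. The number higher was 4 with the replicate block and 1 with equal list lengths. For width, 1 region was lower with the trended variance and 1 higher with equal list lengths. With q-values of at most 1e-05, 18 regions rather than 54 were called in all 6 libraries and 6 rather than 14 did not overlap. Leaving out single libraries left 16 to 24 regions without overlap, the 24 without NRF2 siRNA replicate 3, and 20 without replicate 1 or replicate 2 of the controls. Fewer values per group make non-overlap easier. The share of genes with an antioxidant response element core was 35.7% with TGAC alone. Of 309 values of the 23 named regions under the alternatives, 285 changed neither sign nor call, 12 crossed the threshold (6 regions) and 12 changed sign (7 regions). PSMD4 turned to -0.029 with q-values of at most 1e-05. When single libraries were left out, PSMB5 ranged from -0.087 to 0.0054, PSMB7 from -0.17 to 0.19, PSMB9 from -0.29 to 0.13, PSMD14 from -0.28 to 0.0026, PSME1 from -0.30 to 0.43 and PSME2 from -0.070 to 0.142. Other named changes that 1 library moved by over 1.5 times were PSMB1 (0.19 without NRF2 siRNA replicate 1, 0.51 without replicate 2 and 0.19 without replicate 3), PSMC1 (-0.64 and -0.22 without NRF2 siRNA replicates 1 and 2), PSMD2 (-0.0165 without NRF2 siRNA replicate 2) and PSMD7 (-0.093 without control siRNA replicate 3). The cause of these shifts was not tested.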
